A study of Mus musculus with 16 samples.

Results

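The genes described here mark the steps by which a dividing cell of the adult dentate gyrus becomes a young granule neuron. They comprise 34 listed genes, which were found by symbol among the 55385 Ensembl gene identifiers of the count tables. By stage, 3 mark neural stem cells and radial glia (Sox2, Nes, Hopx), 12 serve the cell cycle and DNA replication (Mki67, Top2a, Ccnd1, Ccnd2, Cdk1, Cdk4, Mcm2, Mcm3, Mcm5, Mcm6, Pcna, Hmgb2) and 5 mark intermediate progenitors and neuroblasts (Eomes, Neurod1, Sox4, Sox11, Igfbpl1). A further 11 are known from immature, growing neurons (Dcx, Stmn1, Stmn2, Tubb3, Tubb2b, Dpysl3, Dpysl5, Ncam1, Gap43, Marcksl1, Draxin), and 3 are transcription factors of neuronal differentiation (Neurod2, Bhlhe22, Tbr1).

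New granule neurons form throughout life in the subgranular zone of the mouse dentate gyrus. Radial glia-like stem cells give rise to rapidly dividing progenitors that express Eomes, these become neuroblasts that express Neurod1 and Dcx, and the cells then extend axons and dendrites and join the granule cell layer. Many of the genes are not restricted to that lineage, since Sox2 and Hopx are also expressed in mature astrocytes, and tubulins, stathmins, Ncam1, Gap43 and Neurod2 also in mature neurons.

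RNA was measured in the mouse dorsal hippocampus after injection of a recombinant adeno-associated virus carrying either GFP (control) or exogenous Dnmt3a2, a short isoform of the DNA methyltransferase Dnmt3a. Every group was injected and was trained 3 weeks later in contextual fear conditioning, a task in which a context is paired with an aversive stimulus, and tissue was taken 1 day or 5 days after training. The 16 libraries thus form 4 groups of 4: control at 1 day, Dnmt3a2 at 1 day, control at 5 days and Dnmt3a2 at 5 days. The labels do not give the strain, age or sex of the mice, the promoter or serotype of the virus, or how many animals went into a library, so what the p-values measure is the spread among libraries, which may be technical. No group lacked virus or training, so neither can be assessed here.

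The libraries held 28.6 to 30.0 M estimated counts each, and levels are given below in CPM, the usual depth-scaled count unit, after TMM scaling between libraries, where 1 CPM stood for about 28.6 to 30.0 counts. Dnmt3a, counted over all its transcripts, was at 34.8 ± 0.797 CPM (SD, n = 4) in control and 964 ± 238 CPM in Dnmt3a2 libraries at 1 day, and at 35.1 ± 2.15 and 1161 ± 110.4 CPM at 5 days; each of the 16 libraries lay on the side its virus label gives. The dentate granule cell marker Prox1 was at 134.1 to 186 CPM and the CA1 marker Wfs1 at 208 to 341 CPM, so both fields were present in every library. Markers of the choroid plexus stood apart in replicate 1 of Dnmt3a2 at 1 day and replicate 1 of Dnmt3a2 at 5 days, where 14 genes summed to 1198 and 1859 CPM against 134 to 377 CPM in the other 14 libraries. In such bulk tissue, fewer cells of a type and less RNA per cell cannot be told apart.

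Measured per kilobase of exon, the genes covered a wide range. The highest mean levels over the 16 libraries were those of Neurod2, a transcription factor of excitatory neurons, at 119 ± 9.99 CPM per kilobase, of the neuronal β-tubulin Tubb3 at 109 ± 6.11, and of Marcksl1, an actin-regulating membrane protein, at 87.5 ± 8.90. The lowest were the division genes Top2a (0.0970 ± 0.0344), Mki67 (0.0941 ± 0.0279) and Cdk1 (0.0576 ± 0.0217) and the progenitor factor Eomes (0.0405 ± 0.0430). Dcx, which encodes the microtubule-binding protein doublecortin and is the customary marker of neuroblasts and immature neurons, lay at 0.492 ± 0.0539 CPM per kilobase. The division genes Mki67, Top2a and Cdk1, and also Igfbpl1 and Draxin, were therefore measured on few counts. Per library there were 13 to 44 for Mki67, 11 to 46 for Top2a and 1 to 13 for Cdk1. Igfbpl1 had 2 to 60 and Draxin 4 to 39, against 152 to 230 for Dcx and 9807 to 12787 for Neurod2. Other cell cycle genes were counted more often, such as Ccnd1 with 1508 to 1989.

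**Figure D1:**
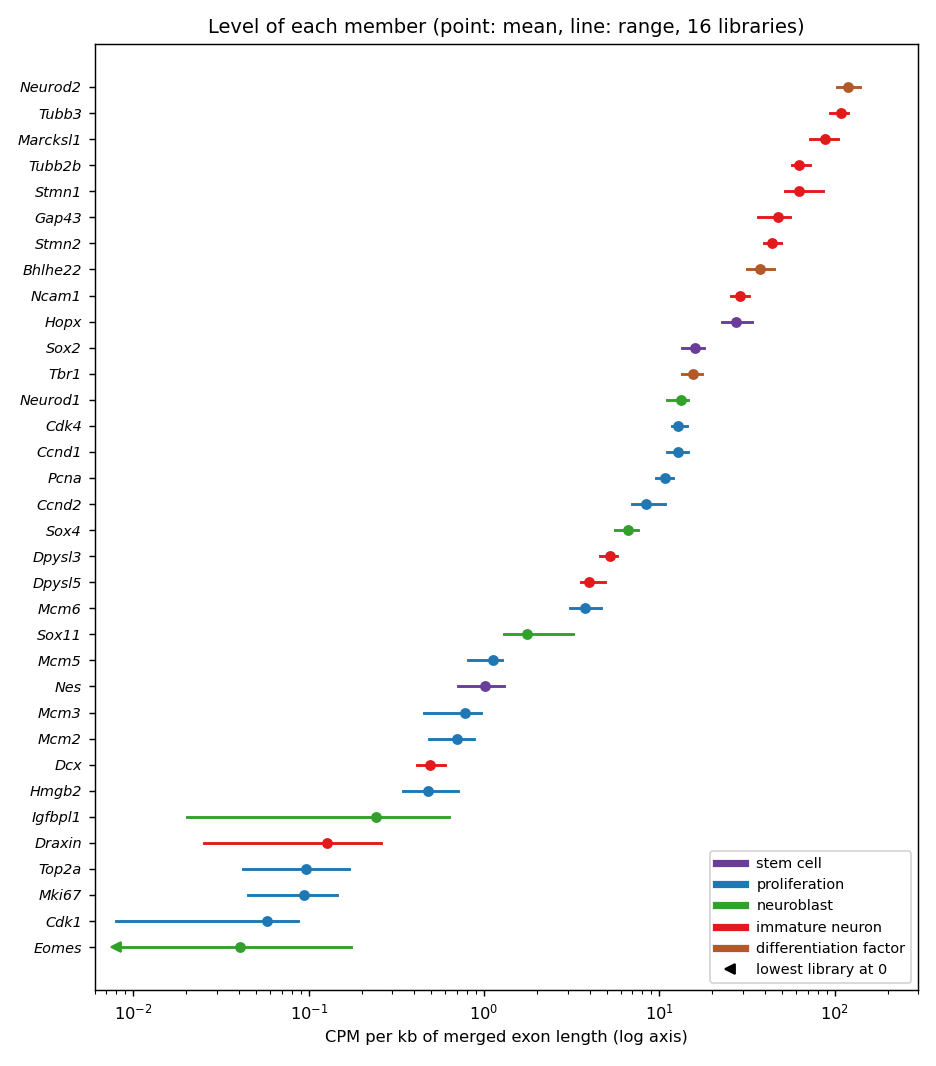
Mean level of the 34 genes over the 16 libraries in CPM per kilobase of exon (logarithmic axis), coloured by stage. Points are means, and lines run from the lowest to the highest library. A < sign marks a gene whose lowest library held no counts. Neurod2, Tubb3 and Marcksl1 stand at the top, and Top2a, Mki67, Cdk1 and Eomes at the bottom.

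Changes were tested with edgeR's quasi-likelihood test over 16899 genes, and a gene was called when its Benjamini-Hochberg adjusted p was under 0.05. Of the 34 genes, 33 passed the filter on low counts and Eomes did not. Between Dnmt3a2 and control, 0 of the 33 were called at 1 day, where 15 of all 16899 genes were called (0.0888%), and 0 at 5 days, where 54 were (0.32%). With an unadjusted p under 0.05 there were 6 of 33 at 1 day (all genes, 7.17%) and 8 of 33 at 5 days (8.01%), and DESeq2's Wald test called 0 on either day. The groups did not overlap at 1 day for 3 of the 33, Ccnd1, Stmn2 and Tubb2b (all genes, 3.43%), and at 5 days for 4, Mcm6, Stmn1, Tbr1 and Bhlhe22 (6.28%). In the average of both days' differences, 2 of the 33 were called, against 241 of all genes (1.43%). The cyclin gene Ccnd1 was higher with Dnmt3a2 (119 of all genes, 0.704%) and the microtubule regulator Stmn1 was lower (122 of all genes, 0.722%). In the average, 9 of the 33 had an unadjusted p under 0.05 (all genes, 12.1%). This average uses the same libraries as the 2 single-day comparisons and is no independent evidence beside them.

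**Figure D2:**
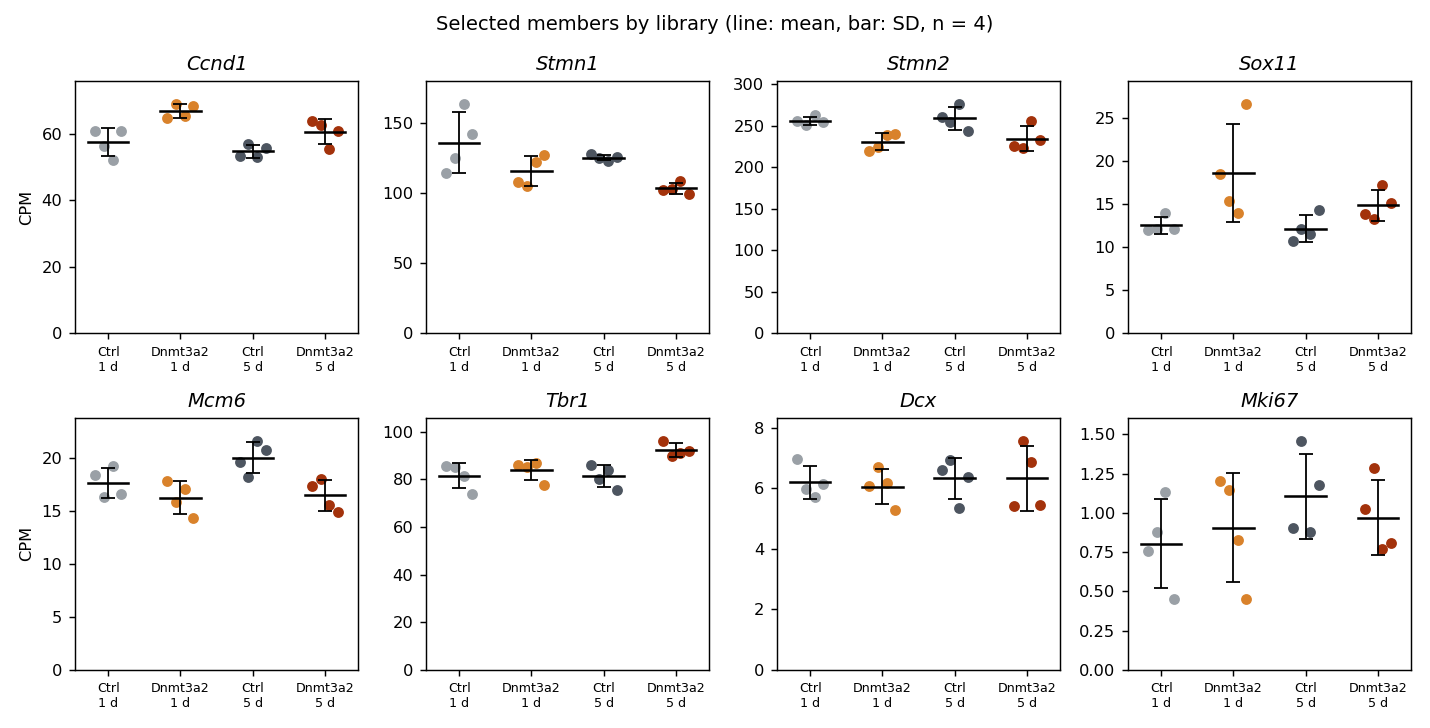
Level of 8 genes in each library (CPM, linear axes from 0), by group; points are libraries, and horizontal marks with bars are means ± SD (n = 4). Ccnd1 was above every control in 7 of 8 Dnmt3a2 libraries and Stmn1 below every control in 6 of 8, while Dcx and Mki67 overlapped between all groups.

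Dnmt3a2 methylates cytosines of DNA, mostly in CpG dinucleotides, and the CpG content of the promoters is therefore given, although DNA methylation was not among the measurements analysed here. RefSeq windows of the 250 bases before the transcription start (GRCm38.p6) matched 24 of the 34 genes, with 26 windows holding 3 to 36 CpG and a median of 13.5, against a median of 6 over all 32851 windows, of which 92.1% hold at least 1. Shown are the windows of Sox11 and Mcm6, the matched genes with the smallest p in the average over days, both on the minus strand and written 5′ to 3′ with every CpG in capitals.
Sox11, chr12:27342719-27342968: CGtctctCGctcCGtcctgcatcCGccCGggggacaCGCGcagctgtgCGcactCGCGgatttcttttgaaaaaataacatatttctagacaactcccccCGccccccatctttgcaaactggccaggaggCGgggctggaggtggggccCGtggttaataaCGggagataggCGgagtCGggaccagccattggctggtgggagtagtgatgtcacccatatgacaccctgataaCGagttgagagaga
Mcm6, chr1:128359706-128359955: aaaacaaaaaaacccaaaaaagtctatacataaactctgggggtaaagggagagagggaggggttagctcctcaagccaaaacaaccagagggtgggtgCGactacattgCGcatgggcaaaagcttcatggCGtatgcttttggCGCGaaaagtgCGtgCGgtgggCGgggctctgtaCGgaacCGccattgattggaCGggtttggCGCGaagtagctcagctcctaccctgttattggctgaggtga
The Sox11 window held 17 CpG at 58.0% G and C, and 76.5% of all windows held fewer. That of Mcm6 held 13 at 52.4%, and 68.5% held fewer. What the CpG content means for these genes was not tested.

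Among the stem cell genes, none was called on either day. Nes encodes nestin, an intermediate filament of neural stem cells and of some vascular cells, and was at 6.81 ± 1.19 CPM in control and 6.63 ± 1.53 CPM in Dnmt3a2 libraries at 1 day, and at 5.69 ± 0.553 and 6.69 ± 0.786 CPM at 5 days. Its log2 differences were -0.04 (SE 0.15, adjusted p = 0.985, edgeR's quasi-likelihood test) and 0.24 (SE 0.16, adjusted p = 0.796). Sox2, a transcription factor of stem cells and astrocytes, differed by 0.01 in the average over days, with an approximate 95% interval of -0.10 to 0.12. Hopx, a homeodomain protein of quiescent stem cells and astrocytes, was at 40.8 and 44.5 CPM in control and Dnmt3a2 libraries at 1 day and at 42.6 and 38.8 CPM at 5 days. The means of Hopx thus differed in opposite directions on the 2 days, by 0.13 and -0.13 on the log2 scale (SE 0.09 each), and the test of that difference between days did not pass (-0.26, adjusted p = 1.0). Astrocyte markers, which share expression with Sox2 and Hopx, summed to 4838 to 5094, 5010 to 5569, 4520 to 5114 and 4618 to 4970 CPM in control and Dnmt3a2 at 1 day and control and Dnmt3a2 at 5 days, with 8 of 12 above 0, a median log2 difference of 0.068 and 1 called higher (Slc1a3, named after its value was seen) averaged over days. Between Dnmt3a2 and control, 10 of the 12 were above 0 at 1 day (median 0.097) and 7 at 5 days (median 0.003). The shares of all genes above 0 were 50.9% and 52.8%, and 52.6% averaged over days. For the difference between days 0 of the 12 astrocyte markers were above 0 (median -0.104), where 51.2% of all genes were. Hopx had the same sign as these markers. The other stem cell genes, Sox2 and Nes, did not, and 2 of the 3 were above 0 (median 0.012). The part of the astrocyte markers in the Sox2 and Hopx values was not tested.

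Of the cell cycle genes, 6 of 12 were above 0 in the average over days (all genes, 52.6%). Their median log2 difference was 0.021 (all genes, 0.006), 1 was called higher and 0 lower. Ccnd1 (chr7:144929931-144939925, minus strand, GRCm38) encodes cyclin D1, which drives progression through G1 with Cdk4. At 1 day it was at 60.9, 56.4, 52.2 and 60.8 CPM in the control libraries and at 64.8, 69.0, 65.4 and 68.5 CPM in the Dnmt3a2 libraries. At 5 days the values were 53.3, 56.9, 53.1 and 55.9 CPM in control and 63.8, 62.6, 55.4 and 60.9 CPM with Dnmt3a2. The groups did not overlap at 1 day, and at 5 days only replicate 3 of Dnmt3a2 lay within the control range. The log2 difference of Ccnd1 was 0.22 at 1 day (SE 0.06, adjusted p = 0.249), 0.15 at 5 days (SE 0.06, adjusted p = 0.473) and 0.18 averaged over days (SE 0.04, 13.5% higher, adjusted p = 0.0315 in edgeR). The call was lost when any of 9 single libraries was left out, at adjusted p between 0.0521 and 0.0696. Without both libraries rich in choroid plexus RNA it held narrowly (adjusted p = 0.0487). Without only the 5-day library of these, replicate 1 of Dnmt3a2, it was lost (0.0521).

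Ccnd1 is also expressed outside the neurogenic lineage, including in oligodendrocyte precursors and microglia. Oligodendrocyte precursor markers summed to 558 to 619 CPM in control and 523 to 629 CPM in Dnmt3a2 at 1 day, and to 581 to 622 and 581 to 640 CPM at 5 days. Microglial markers summed to 415 to 513, 355 to 572, 448 to 458 and 416 to 576 CPM in the same order. Of the 10 markers in each list, 0 were called in the average over days, with median log2 differences of 0.031 and 0.005, and their part in the Ccnd1 difference was not tested. The exons of Ccnd1 overlap those of LTO1 on the other strand by 1100 bases, and no source used here says whether counting used strand. LTO1 itself was at 9.47 ± 0.637 CPM with Dnmt3a2 and 9.86 ± 0.970 CPM in control (n = 8 each), a log2 difference of -0.06 (SE 0.07, adjusted p = 0.798 in edgeR).

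The partners of Ccnd1 showed no call. Ccnd2, the D-type cyclin used by dentate progenitors, averaged 80.1 ± 8.81 CPM with Dnmt3a2 and 76.9 ± 7.18 CPM in control (n = 8), and Cdk4, the kinase partner of D-type cyclins, 42.3 ± 2.46 and 40.8 ± 1.73 CPM. The log2 differences were 0.06 (approximate 95% interval -0.07 to 0.19) and 0.05 (-0.03 to 0.14). Exons of Cdk4 overlap those of Tspan31 by 641 bases, so its counts may be shared with that gene. Mki67, which encodes the proliferation antigen Ki-67, was at 0.758, 0.876, 1.13 and 0.451 CPM in control and 1.202, 1.15, 0.827 and 0.451 CPM in Dnmt3a2 libraries at 1 day. At 5 days it was at 0.902, 1.46, 0.880 and 1.18 CPM in control and 1.02, 1.28, 0.768 and 0.807 CPM with Dnmt3a2. The groups overlapped on both days, and the averaged log2 difference of -0.01 had an interval of -0.45 to 0.44.

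Top2a, the topoisomerase of dividing cells, differed by 0.15 (interval -0.37 to 0.68), Cdk1, the mitotic kinase, by 0.56 (-0.08 to 1.19) and Hmgb2, a chromatin protein of proliferating cells, by 0.10 (-0.23 to 0.43). These intervals rest on the spread that edgeR estimates from all 4 groups together and in part from other genes. They include counting error at these low counts.

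Of the replication genes, Mcm6, which encodes a subunit of the replicative helicase, was at 18.4, 16.3, 19.3 and 16.6 CPM in control and 17.9, 15.9, 17.1 and 14.4 CPM with Dnmt3a2 at 1 day. At 5 days it was at 19.6, 18.2, 21.7 and 20.8 CPM in control and 17.4, 18.1, 15.6 and 14.9 CPM with Dnmt3a2. At 5 days all 4 Dnmt3a2 libraries were below all 4 controls, and at 1 day the groups overlapped. The log2 difference of Mcm6 was -0.28 at 5 days (SE 0.08, adjusted p = 0.247) and -0.20 averaged over days (SE 0.06, adjusted p = 0.114, edgeR). Of the other helicase subunits, Mcm2 differed by -0.02, Mcm3 by -0.09 and Mcm5 by -0.05 averaged over days, each by less than its SE (0.11, 0.13 and 0.09). Pcna, the sliding clamp of the replication fork, differed by -0.02 (SE 0.05).

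At the neuroblast stage, 0 of the 4 tested genes were called on either day or in the average, and the median log2 difference was 0.363 at 1 day, 0.014 at 5 days and 0.218 averaged over days (all genes, 0.003, 0.008 and 0.006). Sox11, a transcription factor that acts with Sox4 in the survival and differentiation of immature neurons, had the smallest p of the 4 in the average. At 1 day it was at 11.96, 12.03, 14.0 and 12.1 CPM in the control libraries and at 18.5, 15.4, 13.9 and 26.6 CPM with Dnmt3a2. At 5 days it was at 10.7, 12.1, 11.48 and 14.3 CPM in control and at 13.8, 13.2, 17.2 and 15.1 CPM with Dnmt3a2. At 1 day 3 of 4 Dnmt3a2 libraries were above every control, the highest being replicate 4, and at 5 days the groups overlapped. The log2 difference was 0.57 at 1 day (SE 0.16, adjusted p = 0.326), 0.29 at 5 days (SE 0.16, adjusted p = 0.724) and 0.43 averaged over days (SE 0.11, or 34.7%, adjusted p = 0.0731, edgeR), none of which passed. Without replicate 4 of Dnmt3a2 at 1 day, the 1-day value was 0.35 and the averaged value 0.32. The averaged value passed without that library (adjusted p = 0.0487) and without replicate 3 of the same group (0.0266). It also passed with DESeq2 (0.0102) and in a fit with the replicate number as a block (0.0489). In 20 other alternative settings it did not pass, and the adjusted p reached 0.224.

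The other neuroblast genes did not pass the test. Sox4, the related factor, was at 30.3 ± 3.74 and 31.8 ± 3.75 CPM in control and Dnmt3a2 at 1 day and at 31.1 ± 3.33 and 33.3 ± 0.893 CPM at 5 days, with an averaged log2 difference of 0.08 (interval -0.04 to 0.21). Its exons overlap those of Gm26735 by 2616 bases. Neurod1, a basic helix-loop-helix factor of neuroblasts that also persists in granule neurons, was at 34.6, 35.8, 31.5 and 30.3 CPM in control and 39.9, 37.7, 33.2 and 36.5 CPM with Dnmt3a2 at 1 day. At 5 days Neurod1 was at 39.8, 38.0, 37.8 and 38.5 CPM in control and 35.3, 38.5, 37.4 and 35.3 CPM with Dnmt3a2. The Dnmt3a2 mean was thus above control at 1 day (log2 difference 0.15, SE 0.07, adjusted p = 0.616) and below it at 5 days (-0.07, SE 0.07, adjusted p = 0.879), with overlapping groups on both days.

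Igfbpl1, a secreted insulin-like growth factor binding protein family member enriched in neuroblasts, varied widely between libraries. At 1 day it was at 0.198, 1.52, 0.790 and 0.278 CPM in control and at 2.06, 1.11, 1.03 and 1.11 CPM with Dnmt3a2, and at 5 days at 0.134, 0.365, 1.44 and 0.485 CPM in control and 0.859, 0.0658, 0.834 and 0.303 CPM with Dnmt3a2. The groups overlapped on both days, and the log2 differences of 0.93 (SE 0.71) and -0.23 (SE 0.76) did not pass (adjusted p = 0.858 and 0.977, edgeR). The 1-day value was 0.62 without replicate 1 of control and 1.65 without replicate 2 of control. Eomes, the T-box factor of intermediate progenitors, was held by 0 to 21 counts per library and was not tested. It was at 0, 0.270, 0 and 0.0347 CPM in control and 0.721, 0.139, 0.310 and 0.0347 CPM with Dnmt3a2 at 1 day, and at 0.1002, 0.0996, 0.176 and 0.208 CPM in control and 0.132, 0.132, 0.300 and 0.0336 CPM with Dnmt3a2 at 5 days. The limit that a count of 0 allows, 3 counts per library, was 0.1 to 0.105 CPM and covers counting error only, and no fold is given.

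The immature neuron genes held the second call. In the average over days 2 of 11 were above 0 (all genes, 52.6%), with a median log2 difference of -0.053 (all genes, 0.006). Of the 11, 0 were called higher and Stmn1 was called lower. Between the days, 6 of 11 were below 0 on both, 2 above 0 on both and 3 of opposite sign. Of all 16899 genes, 4983 were below 0 on both, 5608 above 0 on both and 6308 of opposite sign. Stmn1 (chr4:134468320-134473843, plus strand, GRCm38) encodes stathmin, which destabilises microtubules and is abundant in young neurons and also present in mature ones. At 1 day Stmn1 was at 113.9, 124.8, 163.6 and 141.8 CPM in control and 108.2, 105.0, 121.9 and 127.4 CPM with Dnmt3a2. At 5 days it was at 127.8, 124.9, 123.1 and 125.4 CPM in control and 102.0, 103.1, 108.6 and 99.4 CPM with Dnmt3a2. The groups overlapped at 1 day, where replicate 3 of control was the highest library, and did not overlap at 5 days.

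The log2 difference of Stmn1 was -0.23 at 1 day (SE 0.08, adjusted p = 0.475), -0.28 at 5 days (SE 0.08, adjusted p = 0.252) and -0.26 averaged over days (SE 0.06, 16.3% lower, adjusted p = 0.036, edgeR). Only the averaged value passed. Without replicate 3 of control at 1 day, the 1-day value was -0.13. The averaged call was lost when any of 12 single libraries was left out (adjusted p 0.0505 to 0.0878), and without both libraries rich in choroid plexus RNA (adjusted p = 0.0925). A fit of the 5-day libraries alone called Stmn1 at 5 days (adjusted p = 0.00992).

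Stmn2, the neuronal stathmin of growth cones, was at 256, 251, 263 and 254 CPM in control and 219.8, 224, 239.6 and 240.5 CPM with Dnmt3a2 at 1 day. At 5 days it was at 261, 255, 276 and 244 CPM in control and 226, 223, 256 and 233 CPM with Dnmt3a2. The groups did not overlap at 1 day, and 7 of 8 Dnmt3a2 libraries were below every control. Its log2 difference was -0.15 on the first day, -0.14 on the later one (SE 0.05 each, adjusted p = 0.433 and 0.418) and -0.15 averaged (SE 0.04, adjusted p = 0.052, edgeR), just short of the threshold. Among the other stathmins, Stmn3 differed by -0.08 (SE 0.04, adjusted p = 0.503) and Stmn4 by -0.02 (SE 0.06, adjusted p = 0.947) averaged over days.

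The tubulins and growth cone proteins were not called. Tubb2b, a β-tubulin of migrating and differentiating neurons, was at 146 ± 3.36 CPM in control and 141.7 ± 0.614 CPM with Dnmt3a2 at 1 day and at 151 ± 9.60 and 137 ± 8.06 CPM at 5 days, with an averaged log2 difference of -0.10 (SE 0.04, adjusted p = 0.238). Marcksl1 was at 139.0 ± 12.8 and 133 ± 15.1 CPM at 1 day and at 155 ± 13.4 and 135 ± 6.43 CPM at 5 days, with -0.13 averaged (SE 0.06, adjusted p = 0.329). Tubb3 was at 209.8 ± 13.1 CPM in control and 191 ± 11.4 CPM with Dnmt3a2 at 1 day (log2 difference -0.13, SE 0.05, adjusted p = 0.563) and at 204 ± 5.68 and 207 ± 6.78 CPM at 5 days (0.03, SE 0.05, adjusted p = 0.961). Both tubulins have close relatives, so reads may be shared among them. Gap43, a growth cone protein, differed by -0.09 averaged over days (interval -0.23 to 0.05), the collapsin response mediator Dpysl3 by -0.05 (-0.15 to 0.04), its relative Dpysl5 by 0.09 (-0.02 to 0.21), the adhesion molecule Ncam1 by 0.04 (-0.03 to 0.11) and the axon guidance protein Draxin by -0.03 (-0.74 to 0.67).

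Dcx showed no difference that the test could detect. At 1 day it was at 6.95, 5.97, 5.70 and 6.14 CPM in control and 6.08, 6.70, 6.17 and 5.27 CPM with Dnmt3a2, and at 5 days at 6.62, 6.94, 5.35 and 6.38 CPM in control and 5.42, 7.57, 6.87 and 5.45 CPM with Dnmt3a2. The groups overlapped on both days, and the averaged log2 difference was -0.02 with an interval of -0.19 to 0.16 (adjusted p = 0.963, edgeR).

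Of the differentiation factors, 0 of 3 were called in any comparison. Tbr1, a T-box factor of young glutamatergic neurons that is also strongly expressed in the neocortex, was at 85.5, 85.3, 81.5 and 74.0 CPM in control and 86.2, 85.4, 86.8 and 77.6 CPM with Dnmt3a2 at 1 day, and at 85.9, 80.2, 84.0 and 75.5 CPM in control and 96.3, 90.03, 91.1 and 92.0 CPM with Dnmt3a2 at 5 days. All 4 Dnmt3a2 libraries were above all 4 controls at 5 days and the groups overlapped at 1 day. The log2 difference was 0.04 at 1 day (SE 0.06), 0.18 at 5 days (SE 0.06, adjusted p = 0.269) and 0.11 averaged (SE 0.04, adjusted p = 0.211, edgeR). Bhlhe22, a factor of postmitotic excitatory neurons, was at 129.9 ± 12.96 and 121 ± 15.1 CPM at 1 day and at 134 ± 11.4 and 115 ± 4.05 CPM at 5 days in control and Dnmt3a2, with no overlap at 5 days, a log2 difference of -0.23 on that day (SE 0.08, adjusted p = 0.418) and -0.16 averaged (SE 0.06, adjusted p = 0.214). Neurod2 differed by 0.06 averaged over days (interval -0.04 to 0.17).

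Tissue at the edge of a dissection could hold neocortex, so its markers are given beside these values. The 14 neocortical marker genes, which include Tbr1, summed to 568 to 683 CPM in control and 511 to 635 CPM with Dnmt3a2 at 1 day and to 546 to 661 and 562 to 650 CPM at 5 days. In the average over days 7 of 14 were above 0 (all genes, 52.6%), with a median log2 difference of -0.009 and a range of -0.72 to 0.19. Of the 14, 0 were called and 6, counting Tbr1, had an unadjusted p under 0.05 (12.1% of all genes did). The part of these markers in the Tbr1 and Bhlhe22 values was not tested.

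**Figure D3:**
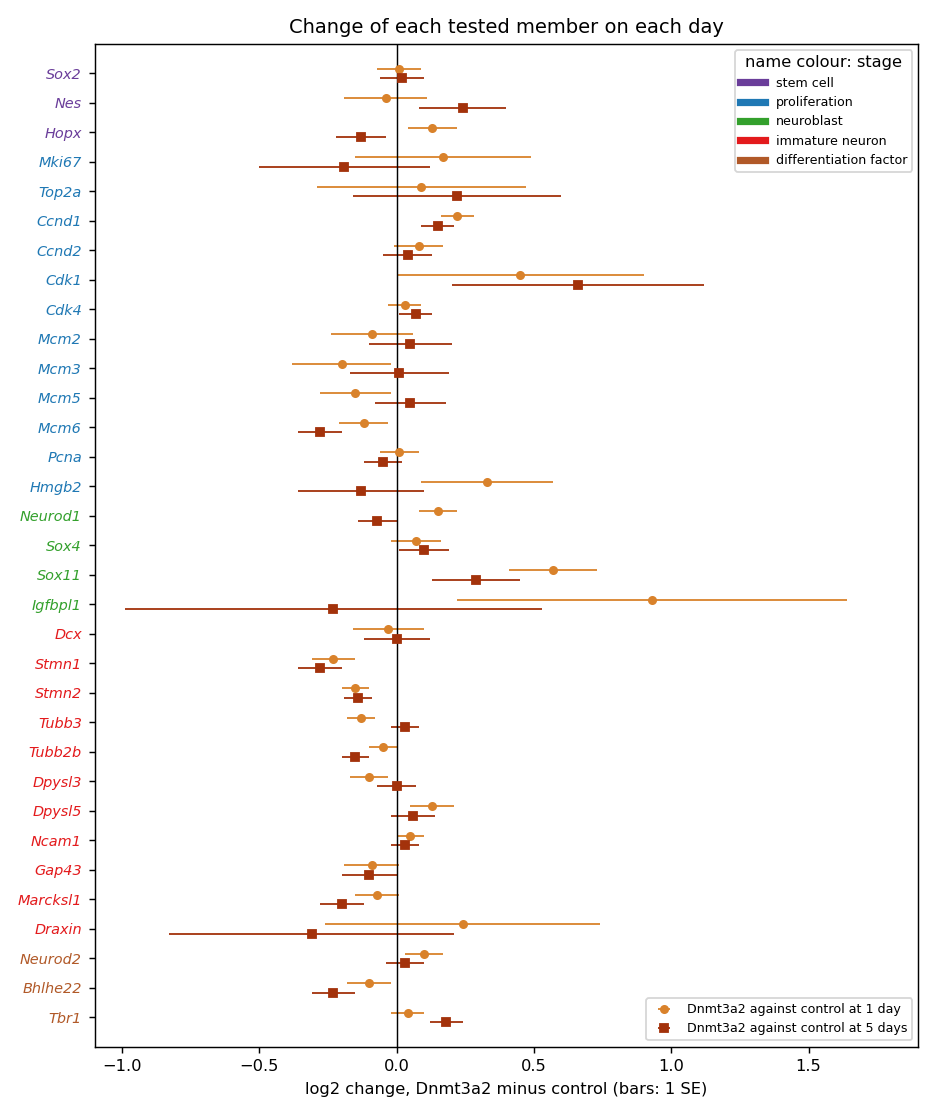
Log2 difference between Dnmt3a2 and control libraries of the 33 tested genes at 1 day and at 5 days (points, with bars of ± 1 SE), ordered by stage. Stmn1 and Stmn2 lie below 0 and Ccnd1 and Sox11 above 0 on both days, Dcx lies near 0 on both, and 0 of the 33 genes were called on either day.

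**Figure D4:**
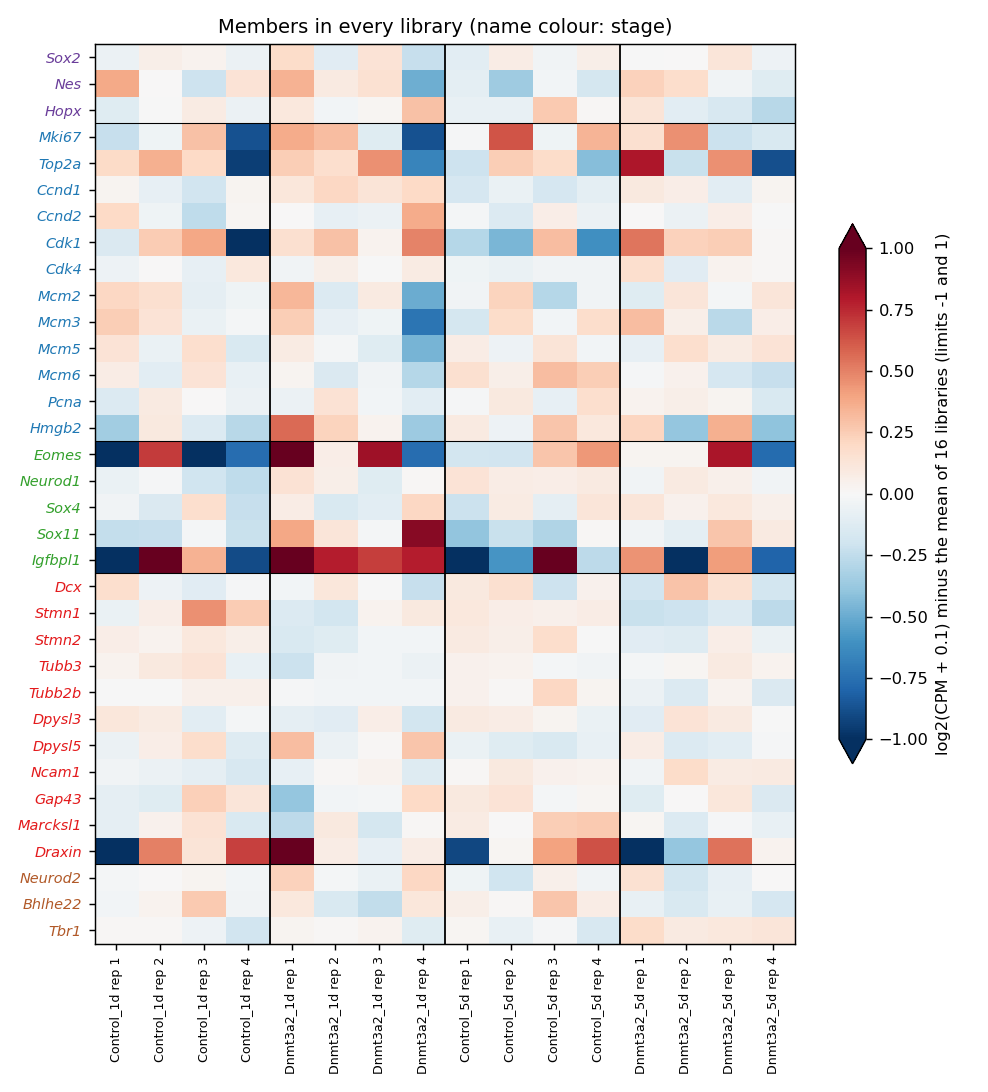
Level of each gene in each library relative to the gene's mean over the 16 libraries (log2 of CPM + 0.1, colours limited to -1 and 1), with genes in rows by stage and libraries in columns by group. Variation between libraries of the same group is widest for Eomes, Igfbpl1, Draxin, Cdk1 and Top2a, which were measured on few counts.

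The sign of the difference was the same on both days for 20 of the 33 genes (60.6%), 12 above 0 and 8 below 0, where it was the same for 62.7% of all genes. The difference between the days was tested directly, and 0 of 33 genes were called, as were 0 of all 16899 genes with edgeR (0.0%), 360 with an unadjusted p under 0.05 (2.13%), and 1 with DESeq2. Neurod1 (-0.23, SE 0.09, unadjusted p = 0.0231) and Tubb3 (0.16, SE 0.07, unadjusted p = 0.0455) had the smallest p among the 33, both at adjusted p = 1.0.

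From 1 to 5 days after training, 0 of 33 genes were called in control libraries and 0 in Dnmt3a2 libraries, where edgeR also called 0 of all genes (0.0% each). An unadjusted p under 0.05 was reached by 3 of 33 in control (598 of all genes, 3.54%) and by 6 of 33 with Dnmt3a2 (1822 of all genes, 10.8%), and DESeq2 called 0 and 53 of all genes. In control libraries, the log2 difference of 5 days from 1 day was 0.22 for Neurod1 (SE 0.07), 0.13 for Ncam1 (SE 0.05) and 0.18 for Mcm6 (SE 0.08), each at adjusted p = 0.999, and the days did not overlap for Neurod1 and Ncam1, as for 2.4% of all genes. In Dnmt3a2 libraries, Ccnd1 differed by -0.14 (SE 0.06, adjusted p = 0.402), Tbr1 by 0.14 (SE 0.06, adjusted p = 0.403) and Ncam1 by 0.12 (SE 0.05, adjusted p = 0.409). The days did not overlap there for Ccnd1, Tbr1, Tubb3 and Igfbpl1, as for 5.17% of all genes. Igfbpl1 was at 1.33 ± 0.490 CPM at 1 day and 0.515 ± 0.394 CPM at 5 days in Dnmt3a2 libraries, a log2 difference of -1.36 (SE 0.73, adjusted p = 0.53).

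Further genes of the same processes were counted from wider lists. Of 28 tested genes of stem cells and neurogenesis, 1 was called in the average over days and 6 had an unadjusted p under 0.05 (12.1% of all genes did), and of 31 immature neuron genes 0 were called and 12 had one. Of 42 cell cycle genes 0 were called and 1 had an unadjusted p under 0.05, and of 14 cell cycle inhibitors 0 and 2. The called gene was Emx1, a homeobox factor of the dorsal telencephalon, at 17.96, 23.3, 21.8 and 17.5 CPM in control and 15.4, 16.1, 15.6 and 17.8 CPM with Dnmt3a2 at 1 day, and at 19.1, 17.8, 18.6 and 20.2 CPM in control and 15.7, 14.2, 15.9 and 17.6 CPM with Dnmt3a2 at 5 days. Emx1 was lower in 6 of 8 Dnmt3a2 libraries than in every control, with a log2 difference of -0.29 (SE 0.06, 17.9% lower, adjusted p = 0.0291, edgeR), and the call was lost without any of 8 single libraries (adjusted p 0.0511 to 0.0791) and without both libraries rich in choroid plexus RNA (0.0645).

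On single days 0 genes of the wider lists were called in the edgeR fit of all 16 libraries with the filter on low counts. Its relative Emx2, a homeobox factor of neural stem cells, was at 14.8 ± 0.856 CPM in control and 19.1 ± 0.997 CPM with Dnmt3a2 at 1 day, without overlap (log2 difference 0.36, SE 0.08, adjusted p = 0.0906; 0.00666 with DESeq2 and 0.0411 with no low-count filter, both of which called it), and at 16.1 ± 1.77 and 16.7 ± 0.751 CPM at 5 days (0.05, SE 0.08). Sox6, a SoxD factor of progenitors and interneurons, differed by 0.29 at 1 day (SE 0.08, adjusted p = 0.289). At 5 days the smallest p were those of Fxyd7, a brain regulator of the sodium pump (-0.34, SE 0.09, adjusted p = 0.177), and Btg2, an antiproliferative gene of neurogenic progenitors (-0.27, SE 0.08, adjusted p = 0.244). Between days, Mcm7 and Mcm4 had the smallest p in control (-0.18 and 0.22, adjusted p = 0.999 each) and Elavl3 and Sox6 in Dnmt3a2 libraries (-0.24 each, adjusted p = 0.319 and 0.327), and for the difference between days Emx2 (-0.31) and Sox6 (-0.28) at adjusted p = 1.0.

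Whether libraries with more Dcx also held more of the neighbouring stages' RNA was examined within groups, as deviations from each group's mean log2 CPM over the 16 libraries, for 7 genes. Igfbpl1 gave a Pearson r of -0.57 (permutation p = 0.0565, adjusted p = 0.198; Spearman's rho -0.58, permutation p = 0.0547) and Dpysl5 an r of -0.55 (permutation p = 0.0288, adjusted p = 0.198; rho -0.55, permutation p = 0.0296). Without the 2 libraries farthest from the median of Dcx, replicate 2 of Dnmt3a2 and replicate 3 of control at 5 days, r was -0.33 for Igfbpl1 and -0.63 for Dpysl5. For Sox11, Sox4, Draxin, Eomes and Neurod1 r was -0.34, -0.24, -0.15, 0.17 and 0.39, with adjusted permutation p of 0.375, 0.468, 0.613, 0.613 and 0.293. None of the 7 relations passed after adjustment.

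**Figure D5:**
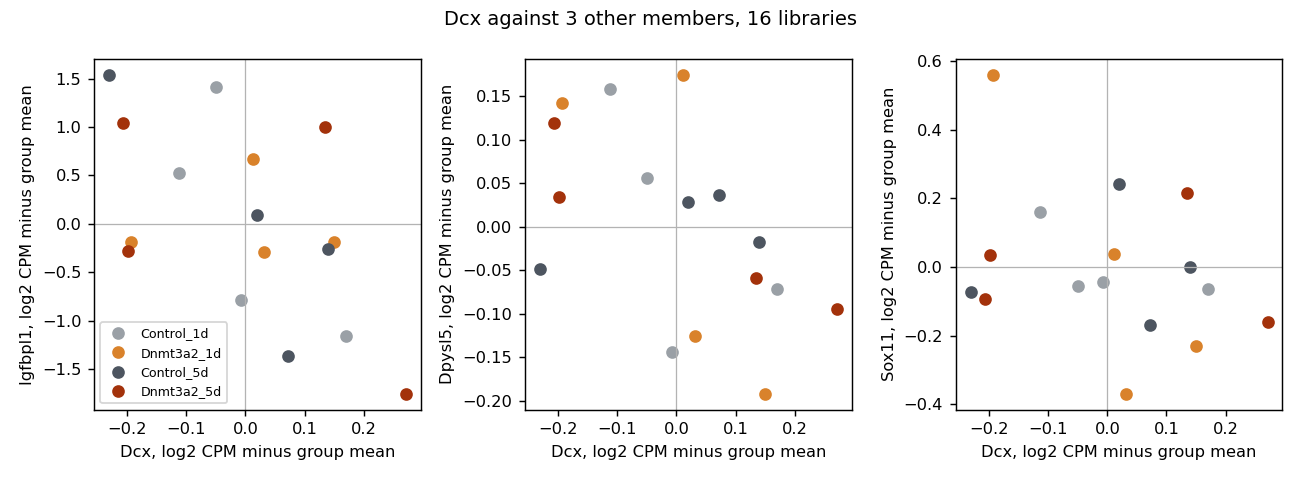
Deviation of Igfbpl1, Dpysl5 and Sox11 from their group means (log2 CPM, vertical axes) against that of Dcx (horizontal axes) in 16 libraries, coloured by group. Pearson's r was -0.57, -0.55 and -0.34, and none passed after adjustment over 7 relations.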

How the data were processed

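The authors deposited estimated counts per gene (55385 identifiers, 26.2% of values not whole) and log2 CPM of 16907 genes. Per the submitters' processing notes, Trim Galore 0.6.4, kallisto 0.4.6, edgeR 3.17 and GRCm38.p6 were used; no source used here gives the strand handling. The deposited log2 values differed from edgeR's log2 CPM of the counts by at most 5.33e-15. Gene symbols came from GENCODE M21 (55144 identifiers named).

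Counts were rounded to whole numbers, filtered with filterByExpr by group, scaled by TMM and fitted with edgeR 4.0.16 (robust quasi-likelihood, R 4.3.3) in 1 model of the 4 groups over all 16 libraries, with Benjamini-Hochberg adjustment over 16899 genes. The SE was taken as the absolute log2 difference divided by the square root of the test's F statistic. Intervals are ± 1.96 SE and approximate. Correlations used 100000 permutations within groups, drawn at random.

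Members and gene lists were chosen with earlier results of these data known. Named genes were the called ones, otherwise up to 3 members with the smallest p per comparison, plus Dcx, Igfbpl1, Sox11, Eomes, Neurod1, Mki67, Top2a, Nes and Ccnd1, and from wider lists the called genes or the 2 with the smallest p; Stmn3, Stmn4 and the remaining members' values were added for completeness. Of 282 listed symbols 281 matched.

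Marker lists without a result above had these median log2 differences averaged over days, with called genes higher and lower: ependyma 0.259 (0 and 0 of 10), endothelium 0.044 (0 and 0 of 10), interneuron -0.076 (0 and 0 of 10), subventricular zone lineage 0.077 (0 and 0 of 10), CA1 0.018 (1 and 1 of 9, Spink8 and Pou3f1), CA3 0.092 (0 and 0 of 10), granule cell -0.004 (1 and 2 of 13, Calb1, then C1ql2 and Dsp) and choroid plexus 1.80 (0 and 0 of 14). On single days, 1 granule cell marker was called higher at 1 day (all genes called, 0.0888%). At 5 days 1 was called higher and 1 lower (all genes called, 0.32%). An unadjusted p under 0.05 was reached by 4 of 13 at 1 day (all genes, 7.17%) and 7 of 13 at 5 days (8.01%). The part of granule cell markers in the values above was not tested.

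Pairs of libraries differed by a chi-square per gene of 4.43 to 43.8 over 120 pairs (1 for a repeat), so none was a duplicate. Counts simulated for Dnmt3a2 against control at 1 day over 16697 genes recovered 13.4% of 1.2-fold, 76.1% of 1.5-fold and 87.9% of 2-fold changes, with 3.3% of calls false. The changed genes were drawn only from those with a mean of at least 1 CPM. These shares therefore do not cover Mki67, Top2a, Cdk1, Igfbpl1, Draxin and Eomes, whose means were lower. The simulation changed 200 genes and drew counts independently from the fitted means and spreads, without effects shared within a library. The real comparison at 1 day called 15 genes, and with fewer changed genes the adjustment is stricter. The shares may therefore be higher than those of the real test. Alternatives were limma 3.58.1, DESeq2 1.42.0, other filters, scalings and thresholds, a replicate block, fits of only the groups compared, and leaving out libraries.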

Additional observations from a re-analysis of the deposited data

Results flagged for a closer look

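In 8 of 136 sets of 4 libraries (34 genes in 4 groups), 1 library lay far from the other three of its group by Dixon's criterion, where chance alone gives about 1 in 20. In Dnmt3a2 at 1 day, replicate 1, which was also rich in choroid plexus RNA, was highest for Igfbpl1 (2.06 CPM against 1.03 to 1.11), Draxin (1.34 against 0.551 to 0.625) and Tubb2b (142.6 against 141.3 to 141.4, a gap of about 1 CPM). Replicate 4 of that group was lowest for Tbr1 (77.6 against 85.4 to 86.8). In control at 1 day, replicate 3 was highest for Sox11 (14.0 against 11.96 to 12.14) and replicate 2 for Eomes (0.270 against 0 to 0.0347). In control at 5 days, replicate 3 was highest for Tubb2b (165.5 against 144.8 to 148.0), and in Dnmt3a2 at 5 days, replicate 4 was lowest for Pcna (23.0 against 26.2 to 26.7).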

How the results depend on the processing

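Another scaling moved the median of all genes by at most 0.001 on the log2 scale. Averaged over days, 4 members were called at adjusted p under 0.10, 4 with DESeq2's Wald test, 1 (Ccnd1) without replicate 1 of both Dnmt3a2 groups (chosen after seeing the data), and 0 to 4 when single libraries were left out. The call of Ccnd1 was lost without replicates 2 or 3 of control at 1 day, 2 of Dnmt3a2 at 1 day, 1, 3 or 4 of control at 5 days, or 1, 2 or 4 of Dnmt3a2 at 5 days. That of Stmn1 was lost without replicates 3 or 4 of control at 1 day, 1 or 2 of Dnmt3a2 at 1 day, or any library of 5 days. That of Emx1 was lost without replicates 2 or 3 of control at 1 day, 1 or 3 of Dnmt3a2 at 1 day, 1 or 4 of control at 5 days, or 2 or 3 of Dnmt3a2 at 5 days. Stmn2 passed with a mean of at least 1 CPM (adjusted p = 0.0464), limma-trend (0.0486) and DESeq2 (0.00719). It also passed without replicate 4 of Dnmt3a2 at 1 day (0.0463) or replicate 3 of Dnmt3a2 at 5 days (0.0253). In 18 alternative settings Stmn2 did not pass, and the adjusted p reached 0.158.

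With the replicate number as a block, 4 members were called in the average: Stmn1 (0.0146), Stmn2 (0.0242), Sox11 (0.0489) and Ccnd1. Of the 16 libraries, 6 correlated best with their own number, and 8 of 24 same-number pairs had an r over 0.1 (range -0.086 to 0.38). Whether the numbers pair the libraries is not settled by these values, since the count to be had without pairing was not computed.

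Using only the groups compared, 1 member (Stmn1) was called at 5 days. Over all genes, the calls at 1 day were 23 at adjusted p under 0.10, 34 with no low-count filter, 7 with only the groups compared, 60 with DESeq2 and 6 to 22 without single libraries. At 5 days they were 104 at adjusted p under 0.10, 94 with only the groups compared, 138 with DESeq2, 90 without replicate 1 of both Dnmt3a2 groups, 105 also without replicate 1 of control at 1 day, and 22 to 82 without single libraries. Averaged over days they were 442 at adjusted p under 0.10, 508 with DESeq2 and 121 to 272 without single libraries. From 1 to 5 days in Dnmt3a2 libraries they were 6 with no filter, 53 with DESeq2 and 0 to 1 without single libraries, and for the difference between days 1 with DESeq2. The cause of these shifts was not tested.

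Signs reversed for Dcx, Mki67, Nes, Top2a and Igfbpl1, none of which was called, and the values of Top2a and Igfbpl1 were not all near 0. Dcx at 5 days was -0.002 with no low-count filter, -0.002 with the block and -0.007 with limma-trend. Without replicate 1 of both Dnmt3a2 groups, Dcx averaged 0.02 and Top2a -0.03, and Top2a at 5 days was -0.10. Without replicate 1 of control at 1 day and both Dnmt3a2 groups, Dcx was 0.03 at 1 day and 0.05 averaged, Mki67 -0.02 at 1 day, Igfbpl1 -0.13 averaged, and Top2a -0.10 at 5 days and -0.002 averaged. Leaving out single libraries gave these genes ranges that span 0. At 1 day they were -0.08 to 0.03 for Dcx, -0.02 to 0.39 for Mki67, -0.15 to 0.10 for Nes and -0.15 to 0.29 for Top2a. At 5 days they were -0.10 to 0.07 for Dcx, -0.59 to 0.65 for Igfbpl1 and -0.10 to 0.47 for Top2a. Averaged over days they were -0.06 to 0.02 for Dcx, -0.11 to 0.10 for Mki67 and -0.008 to 0.28 for Top2a.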
